A study of Mus musculus with 6 samples.

Results

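In all, 10 genes of the nuclear factor κB (NF-κB) system were followed in mouse heart RNA: the 5 subunit genes Rela, Relb, Rel, Nfkb1 and Nfkb2, the 3 inhibitor genes Nfkbia, Nfkbib and Tnfaip3, and the kinase complex genes Ikbkb and Ikbkg. They were taken by gene symbol from a deposited table of 55401 genes, and all 10 were found and passed the filter on low counts, which left 16759 genes for testing. The samples were hearts of C57BL/6 mice, 6 to 8 weeks old, from 3 control animals and 3 animals given angiotensin II (Ang II), with 1 library of poly(A) RNA per heart. Ang II is a peptide hormone that constricts vessels and is given to mice to model hypertensive heart disease; its dose and duration are not given in the sources used here. Corynoline, PPARα and NF-κB stand in the title of the series. None of the 6 hearts is labelled as treated with corynoline. The question addressed is how transcripts of the NF-κB machinery differ between hearts with and without Ang II.

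NF-κB is a family of transcription factors that act as dimers. In resting cells the dimers are held in the cytoplasm by IκB proteins. When the IκB kinase complex phosphorylates an IκB, the inhibitor is degraded, the dimer enters the nucleus, and among the genes it switches on are its own inhibitors, which closes a feedback loop. In the heart, cardiomyocytes, endothelial cells, fibroblasts and resident leukocytes all carry the pathway. It is controlled chiefly at the protein level, which RNA counts do not measure.

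To show the DNA ahead of these genes, RefSeq promoter windows (GRCm38.p6, 250 bases before to 50 after a transcript start) were read for 7 of the 10 genes and covered 13 starts; Relb, Nfkb1 and Ikbkb had no window. The κB consensus, the decamer bound by NF-κB dimers, was searched on both strands. It was found in 6 of the 13 windows, at Rel, Nfkb2, Nfkbia and Tnfaip3, and in no window of Rela, Nfkbib or Ikbkg. Of all 32851 mouse windows of that length, 4.51% held it, and 5.14% of the 27025 genes had such a window. The 250 bases before the start are shown for the 4 genes with a match, 5′ to 3′ on the gene's own strand, with bases that match the consensus on either strand in capitals. They lie at chr12:55492648-55492897, minus strand; chr10:19015411-19015660, minus strand; chr11:23770970-23771219, minus strand; and chr19:46304487-46304736, plus strand.
Nfkbia: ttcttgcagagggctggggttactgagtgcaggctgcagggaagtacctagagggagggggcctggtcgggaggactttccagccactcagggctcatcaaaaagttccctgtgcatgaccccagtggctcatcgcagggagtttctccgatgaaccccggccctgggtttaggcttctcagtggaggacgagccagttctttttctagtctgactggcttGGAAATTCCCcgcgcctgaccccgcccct
Tnfaip3: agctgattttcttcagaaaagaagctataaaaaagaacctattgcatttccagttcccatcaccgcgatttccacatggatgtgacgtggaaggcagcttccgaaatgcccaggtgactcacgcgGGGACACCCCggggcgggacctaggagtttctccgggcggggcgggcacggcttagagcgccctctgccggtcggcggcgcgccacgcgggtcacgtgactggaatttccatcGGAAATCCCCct
Rel: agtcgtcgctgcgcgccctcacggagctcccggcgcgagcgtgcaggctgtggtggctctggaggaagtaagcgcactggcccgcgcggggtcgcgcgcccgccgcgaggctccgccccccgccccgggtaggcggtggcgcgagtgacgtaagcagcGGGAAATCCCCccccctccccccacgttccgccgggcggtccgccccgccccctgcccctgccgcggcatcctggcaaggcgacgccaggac
Nfkb2: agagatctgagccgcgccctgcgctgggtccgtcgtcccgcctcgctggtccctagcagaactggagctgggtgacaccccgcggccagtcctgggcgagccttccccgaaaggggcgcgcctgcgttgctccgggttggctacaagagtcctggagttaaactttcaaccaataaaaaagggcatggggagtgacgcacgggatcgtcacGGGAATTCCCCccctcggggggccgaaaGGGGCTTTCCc
The Nfkbia stretch, GGAAATTCCC, begins 29 bases before the start. Tnfaip3 holds GGGACACCCC at 125 bases and GGAAATCCCC at 12 bases before its start. Rel holds GGGAAATCCCC at 92 bases, a stretch of overlapping matches. Nfkb2 holds GGGAATTCCCC at 39 bases, again with overlapping matches, and GGGGCTTTCC at 11 bases. The Nfkb2 start shown lies inside the gene span of the annotation, and the 2 windows of its later starts also hold matches. Those 2 windows overlap, and 1 stretch lies in both, so the 6 windows do not hold separate stretches throughout. No binding of NF-κB was measured in these hearts, and a match describes the DNA letters alone.

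Libraries held 51202916 to 63564869 estimated counts, of which mitochondrially encoded genes took 35.8% to 47.6%. Ang II replicate 1 stood apart: its median absolute log2 deviation from the other libraries was 0.54, against 0.22 to 0.25 for the other 5, and genes in the shortest quintile of exon lengths lay 0.43 higher and those in the longest quintile 0.28 lower there on the log2 scale (medians). Values are therefore given with it and, where it moves them, without it. Levels of a gene are compared between libraries in CPM, counts scaled to a common library size by the trimmed mean of M-values (TMM), and levels of different genes in FPKM, which is also per kilobase of transcript. Cardiomyocyte markers summed to 40969 to 54128 CPM over the 6 libraries. The extraction text mentions an adipose type, but adipocyte markers summed to 3.65 CPM at most.

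Per kilobase, the inhibitor Nfkbia was the most abundant of the 10 transcripts in control hearts, at 15.7 ± 2.36 FPKM (SD, n = 3). It encodes IκBα, the inhibitor that is degraded and remade within each round of signalling. Rela followed at 6.27 ± 1.28 and Nfkbib at 5.34 ± 0.499 FPKM, then Nfkb2 at 2.48 ± 0.659, Nfkb1 at 1.78 ± 0.379 and Relb at 1.44 ± 0.308 FPKM. The least abundant were Ikbkb at 0.748 ± 0.10, Rel at 0.455 ± 0.210, Tnfaip3 at 0.384 ± 0.0538 and Ikbkg at 0.360 ± 0.314 FPKM. The ranges of neighbours in this order were separate only between Nfkbia and Rela, between Nfkbib and Nfkb2, and between Relb and Ikbkb. All other neighbours overlapped across the 3 control hearts. Read within each heart, Rela was above Nfkbib, Nfkb2 above Nfkb1, Nfkb1 above Relb and Ikbkb above Rel in all 3 controls. Rel and Tnfaip3 changed places between hearts, as did Tnfaip3 and Ikbkg, so their order is not fixed by these data.

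**Figure D1:**
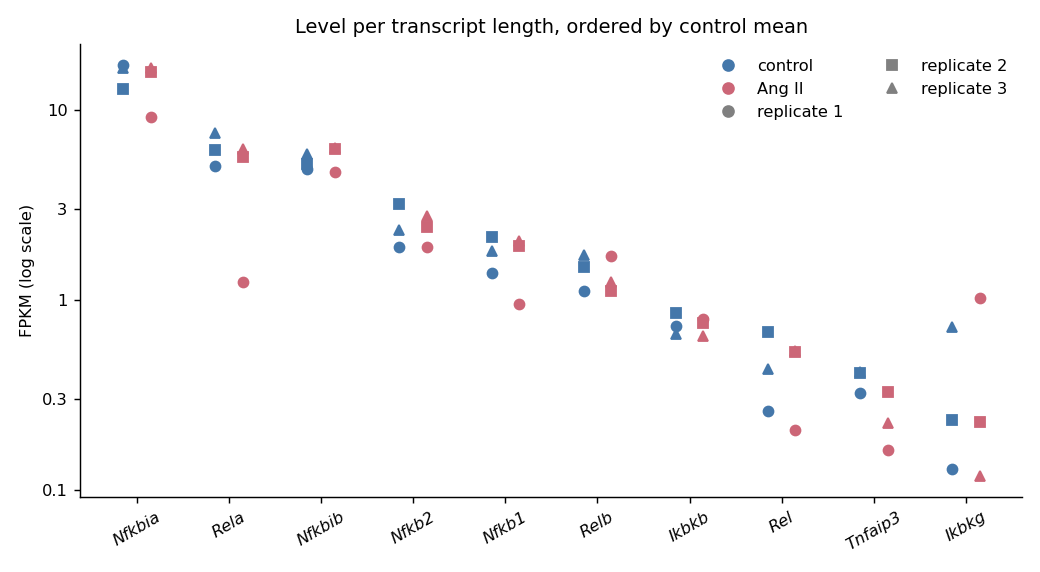
FPKM on a log axis for each of the 10 genes, ordered by control mean, with 1 point per heart (blue control, red Ang II, marker shape for the replicate number). Nfkbia is highest at 15.7 FPKM in controls, and the Ang II replicate 1 point of Rela, at 1.25 FPKM, lies far below the other 5 hearts.

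None of the 10 transcripts passed the threshold for a difference between Ang II and control hearts. In edgeR's quasi-likelihood test, 0 of the 10 genes had a Benjamini-Hochberg adjusted p under 0.05 over all 16759 genes, where the share of all genes called was 0.0358% (6 genes). One gene, Tnfaip3, had an unadjusted p under 0.05, where 7.51% of all genes did. DESeq2 also called 0 of the 10 (1.65% of all genes), and 1 had an unadjusted p under 0.05 (9.48%). With Ang II replicate 1 left out, edgeR called 0 of the 10 (0.73% of all genes), and Relb and Tnfaip3 had an unadjusted p under 0.05 (15.4%). Limma with library weights, which gave that library a weight of 0.148, called 0 of the 10 (2.08%) with 2 at an unadjusted p under 0.05 (20.5%). Limma on FPKM could test 8 of them and called 0 (0.0331%), with 0 at an unadjusted p under 0.05 (4.65%). The log2 change was below 0 for 8 of the 10 genes, where 49.1% of all genes lay below 0, and the median was -0.12 against 0.01 over all genes (-0.21 against -0.01 with Ang II replicate 1 left out). With 3 hearts a group, the 95% interval of the log2 change ran from -0.47 to 0.25 for Nfkb2, the narrowest, and from -1.81 to 2.81 for Ikbkg, the widest of the 10, so a missed threshold does not show that a level stayed the same.

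**Figure D2:**
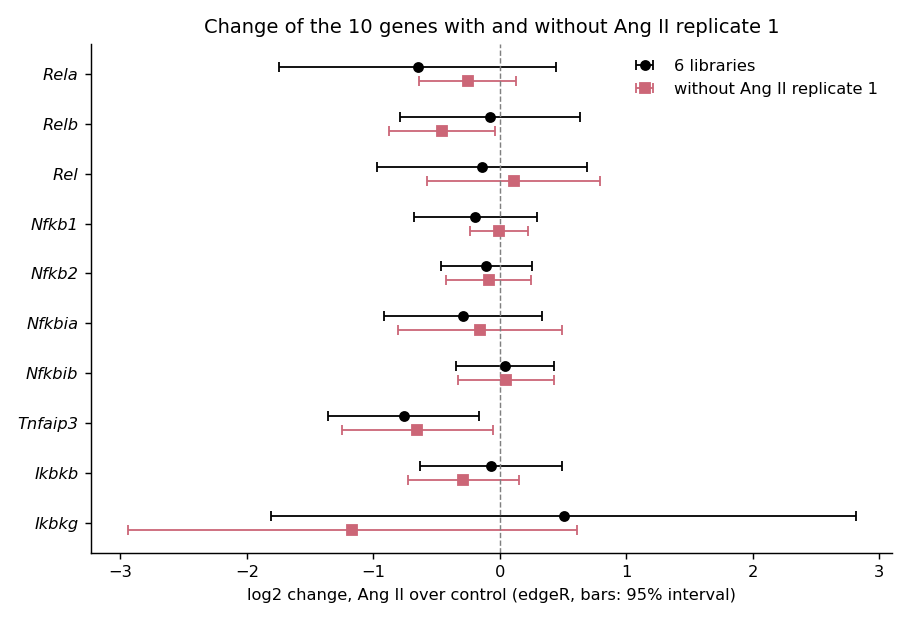
Log2 change of Ang II over control with its 95% interval from edgeR for each of the 10 genes, from all 6 libraries (black) and without Ang II replicate 1 (red). With all 6 libraries only the Tnfaip3 interval, -1.36 to -0.16, lies clear of 0, and none passed the threshold adjusted over all genes.

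Among the subunits, Rela (chr19:5637483-5648130, plus strand) encodes p65, which carries the activation domain of the classical p50/p65 dimer. Its normalised level was 21.1, 17.9 and 24.7 CPM in control replicates 1, 2 and 3, and 4.97, 17.1 and 18.5 CPM in Ang II replicates 1, 2 and 3. Ang II replicate 1 was far below the other 5 hearts, while the other Ang II hearts lay just below and just above the lowest control, and the groups overlapped. The log2 change was -0.65 (SE 0.459, 95% interval -1.75 to 0.44, edgeR adjusted p = 0.767). It was -0.26 (SE 0.156, edgeR adjusted p = 0.511) with that heart left out. That library's Rela count was 216, against 966 to 1359 in the others, and its CPM was 0.291 times that of the next lowest heart. Of all genes tested, 4.27% lay at least as far below the rest in that library.

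Nfkb1 (chr3:135584655-135691546, minus strand) encodes p105, the precursor of p50, the usual partner of p65. It stood at 22.8, 24.6 and 23.1 CPM in controls and at 14.9, 23.0 and 23.9 CPM in Ang II hearts. Again replicate 1 alone was low and the other Ang II hearts lay within the control range. Its log2 change was -0.19 (SE 0.205, edgeR adjusted p = 0.839) with all hearts and -0.01 (95% interval -0.23 to 0.22) without that library, the narrowest interval of the 10.

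Rel (chr11:23736847-23770970, minus strand) encodes c-Rel, a subunit best known from lymphocytes. It stood at 2.63, 4.79 and 3.40 CPM in controls and at 2.00, 3.91 and 3.88 CPM in Ang II hearts, with overlapping groups and the first replicate of each group the lowest. A log2 change of -0.14 (SE 0.348) turned to 0.11 without Ang II replicate 1. Lymphocyte markers summed to only 1.78 to 3.70 CPM in these hearts, and their part in the Rel level was not tested.

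The remaining subunits belong to the alternative arm, in which p100, the product of Nfkb2, is trimmed to p52 and pairs with RelB. Relb (chr7:19606217-19629438, minus strand) stood at 5.87, 5.56 and 7.09 CPM in controls and at 8.58, 4.30 and 4.69 CPM in Ang II hearts. In CPM Ang II replicate 1 was the highest of all 6 hearts and the other Ang II hearts were the lowest. In FPKM control replicate 3 (1.72) lay just above Ang II replicate 1 (1.71), and control replicate 1 (1.11) was the lowest. Over all hearts the log2 change was -0.08 (SE 0.299, edgeR adjusted p = 0.956). Leaving out Ang II replicate 1 gave -0.46 (SE 0.170, unadjusted p = 0.0381, edgeR adjusted p = 0.291). Nfkb2 (chr19:46304320-46312385, plus strand) stood at 11.9, 13.9 and 11.4 CPM in controls and at 11.2, 11 and 12.3 CPM in Ang II hearts. It varied least of the 5 subunits over the 6 hearts, and the groups overlapped, with a log2 change of -0.11 (SE 0.152), which was -0.09 with Ang II replicate 1 left out and -0.01 without control replicate 2. Its exons overlap those of Psd and of a long non-coding RNA on the other strand, which held 38 to 114 and 42 to 130 counts against 489 to 929 for Nfkb2. The strandedness of the libraries is not given, so reads from the overlap cannot be assigned with certainty.

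**Figure D3:**
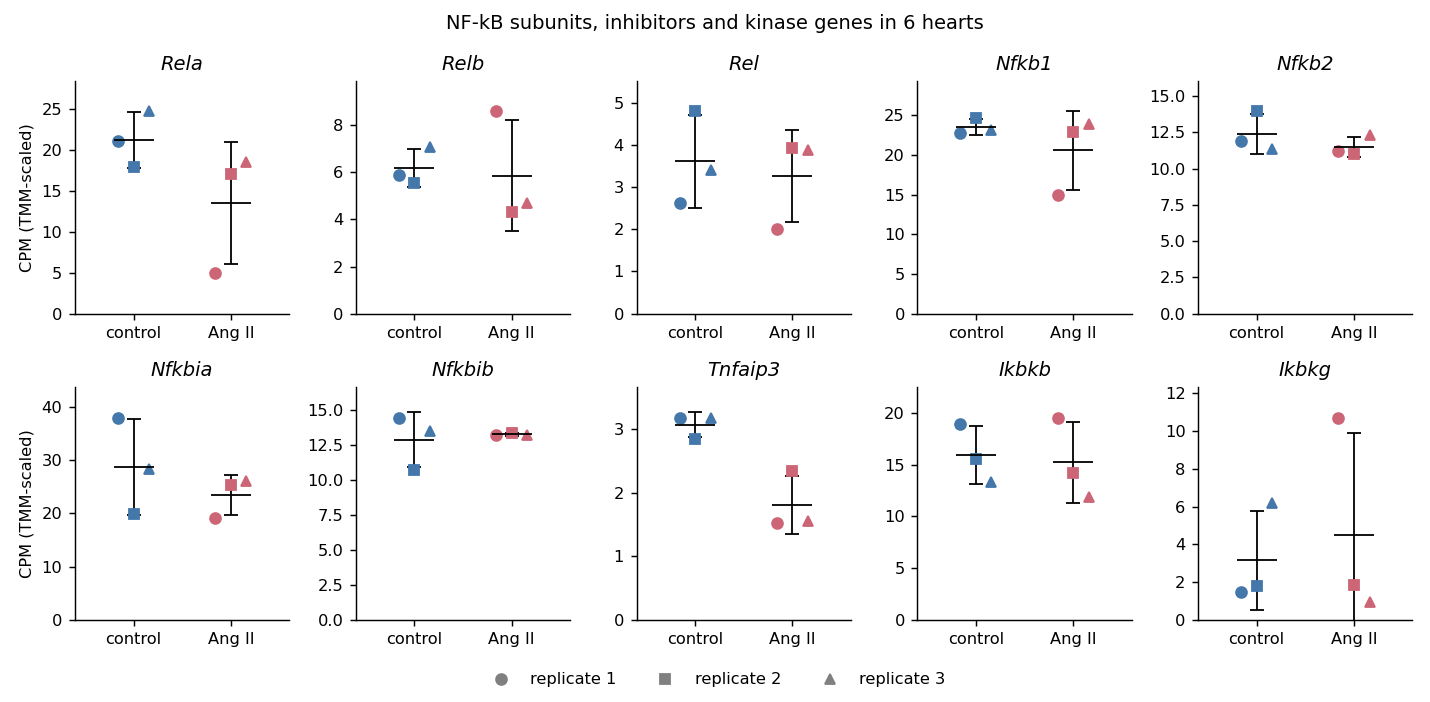
CPM of each of the 10 genes in 3 control (blue) and 3 Ang II (red) hearts, with the mean and SD of each group in black and marker shape for the replicate number (the lower SD bar of Ikbkg in Ang II hearts runs below 0 and is cut there). Only for Tnfaip3 do the groups not overlap in CPM (in FPKM they do); Ang II replicate 1 is the lowest point for Rela and Nfkb1 and the highest for Relb and Ikbkg.

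In control hearts Rela took the largest share of subunit transcripts. Of the summed FPKM of the 5 subunit genes it made up 52.0%, 44.9% and 54.7% in controls and 48.4% and 48.5% in Ang II replicates 2 and 3, but 20.7% in Ang II replicate 1. There Nfkb2 led with 31.5% and Relb held 28.4%, against 9.61% to 12.4% for Relb in the other 5 hearts. The ratio of Nfkbia to Rela FPKM was 7.35 in that heart and 2.11 to 3.43 in the others. In Ang II replicates 2 and 3 the shares of Rela, Nfkb2 and Rel lay within the control ranges, that of Relb (9.61% and 9.70%) below its range and that of Nfkb1 (16.6% and 16.0%) above it. Shares of 1 total move against each other, and these were not tested. In Ang II replicate 1, leukocyte markers summed to 84.9 CPM, against 45.8 to 47.5 in controls and 28.0 and 36.8 in the other Ang II hearts. Laptm5 (31.8 against 7.78 to 16.6 CPM in the other 5 hearts) and Tyrobp (24.3 against 5.59 to 13.0) made up most of that sum, while Ptprc (3.82) and Cd53 (2.44) lay below all 3 controls. Macrophage and monocyte markers summed to 476 CPM there, against 218 to 304 elsewhere, with C1qa, C1qb, C1qc and Lyz2 above every other heart and Adgre1 (4.83 CPM) and Ccr2 (1.73 CPM) below all 3 controls. Fibroblast markers summed to 340 CPM, against 596 to 623, and most of that gap lay in Dcn (69.2 against 279 to 327 CPM); without Dcn the sum was 270.3 against 284.7 to 331.8. In tissue RNA, a different number of cells of a type and a different amount of RNA per cell cannot be told apart, and the part of these cells in the subunit values was not tested.

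**Figure D4:**
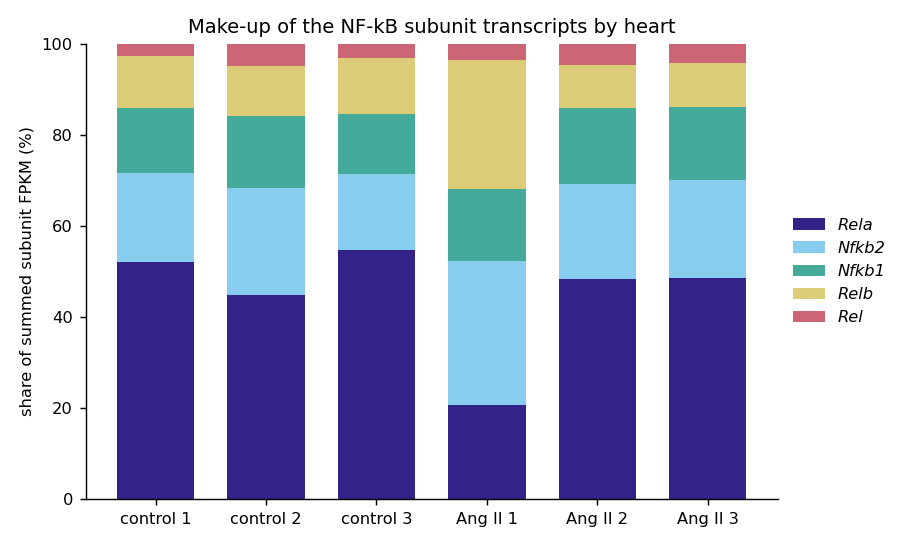
Share of each subunit gene in the summed FPKM of the 5 subunit genes, as stacked bars for each of the 6 hearts. Rela makes up 44.9% to 54.7% in 5 hearts and 20.7% in Ang II replicate 1, where Nfkb2 and Relb take larger shares.

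Of the inhibitors, Tnfaip3 was the gene whose groups did not overlap in CPM, although they did in the deposited FPKM. The gene (chr10:19000910-19015410, minus strand) encodes a ubiquitin-editing enzyme that shuts off signalling upstream of the kinase complex and is itself induced by NF-κB. It stood at 3.17, 2.84 and 3.18 CPM in control hearts and at 1.52, 2.33 and 1.56 CPM in Ang II hearts. In CPM all 3 Ang II hearts lay below all 3 controls, with replicates 1 and 3 close together and replicate 2 nearer the controls. Of all genes tested, 9.21% were lower in this way, and 17.2% had groups apart in either direction. In FPKM, which is scaled to another library total, the values were 0.322, 0.413 and 0.416 in controls and 0.162, 0.325 and 0.223 in Ang II hearts. There Ang II replicate 2 lay just above control replicate 1, so the separation of the groups depends on the scaling. The counts behind these values were small, 145 to 189 in controls and 66 to 164 in Ang II hearts. Its log2 change was -0.76 (SE 0.251, 95% interval -1.36 to -0.16, unadjusted p = 0.0199), and after adjustment over all genes it did not pass (edgeR adjusted p = 0.560; DESeq2 adjusted p = 0.241). It was -0.65 (SE 0.242, edgeR adjusted p = 0.288) with Ang II replicate 1 left out. Red blood cell markers were also lower in Ang II hearts, with sums of 802 to 2040 CPM in controls and 444 to 594 in Ang II hearts (7 of 7 below 0). Of 10 endothelial markers 8 had log2 changes below 0, but their sums overlapped, at 1553 to 1805 CPM in controls and 1376 to 1792 in Ang II hearts. Of the 7 granulocyte markers Ngp, Camp and Mpo were at 0 in every library. The list summed to 3.82 to 12 CPM in controls and 2.76 to 4.47 in Ang II hearts, which overlapped. The part of all these cells in the Tnfaip3 values was not tested.

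Nfkbia (chr12:55489410-55492647, minus strand) stood at 38.0, 19.8 and 28.3 CPM in controls and at 19.1, 25.2 and 26.0 CPM in Ang II hearts. The controls held both the highest value and the second lowest, so the groups overlapped. Nfkbia had a log2 change of -0.29 (SE 0.263, 95% interval -0.92 to 0.34, edgeR adjusted p = 0.815). It moved with single libraries, to -0.04 without control replicate 1, -0.50 without control replicate 2 and -0.16 without Ang II replicate 1. Nfkbib (chr7:28758251-28766640, minus strand) encodes IκBβ, a slower-turning inhibitor that binds the same dimers. It stood at 14.5, 10.7 and 13.5 CPM in controls and at 13.2, 13.4 and 13.3 CPM in Ang II hearts. In CPM the Ang II hearts lay within the control range and close to each other, whereas in FPKM they ran from 4.71 to 6.33 and past the control range of 4.92 to 5.89. Nfkbib had a log2 change of 0.04 (SE 0.162, 95% interval -0.34 to 0.43), and 0.05 with Ang II replicate 1 left out.

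The kinase complex joins catalytic subunits with a scaffold. Ikbkb (chr8:22659212-22706589, minus strand) encodes IKKβ, the catalytic subunit of the classical arm, and stood at 18.9, 15.6 and 13.4 CPM in controls and at 19.6, 14.2 and 11.9 CPM in Ang II hearts. The first replicate of each group was the highest and the groups overlapped (log2 change -0.07, SE 0.234, 95% interval -0.63 to 0.49; -0.29 with Ang II replicate 1 left out). Ikbkg (chrX:74393290-74453778, plus strand) encodes NEMO, the scaffold that binds ubiquitin chains, and was the most variable of the 10 genes. It stood at 1.47, 1.82 and 6.18 CPM in controls and at 10.7, 1.85 and 0.956 CPM in Ang II hearts. One heart of each group was high and the other 4 were low, an 11.2-fold range from lowest to highest. For Ikbkg the log2 change was 0.50 (SE 0.970, 95% interval -1.81 to 2.81) with all hearts and -1.17 (SE 0.720, edgeR adjusted p = 0.515) with Ang II replicate 1 left out, so its sign rests on that library. There its CPM was 1.73 times that of the next highest heart, and 6.14% of all genes lay at least as far above. Its exons overlap those of G6pdx on the opposite strand, whose counts were 326 to 466 in the 6 hearts, while those of Ikbkg were 67 to 466. With the strand of the reads unknown the Ikbkg counts are uncertain, and the part of G6pdx reads in them was not tested.

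In CPM, Ang II replicate 1 was the lowest heart for 5 of the 10 genes (Rela, Rel, Nfkb1, Nfkbia and Tnfaip3). Of all genes, 31.9% were lowest there. It was the highest heart for 3 of the 10 (Relb, Ikbkb and Ikbkg), and 30.9% of all genes were highest there. Of these 8 genes, Rel, Nfkb1, Tnfaip3, Ikbkb and Ikbkg fall in the longest quintile of exon lengths, in which that library ran low on the whole. Ikbkb and Ikbkg were high in it. Nfkbia falls in the shortest quintile, in which that library ran high on the whole, and was lowest there. Counted from the shortest, Rela falls in quintile 2 and Relb in quintile 3. The quintile values are medians, and the part of exon length in the values of single genes was not tested. The CPM values of Rel, Nfkb1, Nfkbia and Nfkbib in Ang II replicates 2 and 3 lay within the control range. The share of all genes that did so was not computed.

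Across the 6 hearts, the genes with a pattern most like that of Rela were Kdm4c, Trim32 and Lnx1 (Pearson r of log2 CPM 0.999, 0.999 and 0.997 over 6 libraries, among 8602 genes with a mean of at least 5 CPM). Kdm4c stood at 6.39, 5.30 and 7.18 CPM in controls and at 1.84, 5.18 and 5.68 CPM in Ang II hearts, low in replicate 1 as Rela was. As many as 763 genes had r above 0.9 with Rela, and all share the same 6 libraries, in which Ang II replicate 1 stood apart. For Tnfaip3 the closest were Nprl2, Mxra8 and Neo1 (r 0.990, 0.984 and 0.983), with 112 genes above 0.9. Mxra8 stood at 23.7, 19.7 and 24.3 CPM in controls and at 8.60, 17.8 and 10.8 CPM in Ang II hearts, with replicate 2 nearest the controls as for Tnfaip3. These correlations describe 6 hearts and carry no test.

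The wider pathway was followed in 120 other genes, from receptors to targets, of which 108 were tested. With edgeR, 0 of the 108 passed the threshold; 5 higher and 8 lower genes had an unadjusted p under 0.05, where 3.57% and 3.94% of all genes did. Log2 changes of 46 of the 108 were positive and of 62 negative (median -0.06, and -0.10 with Ang II replicate 1 left out). DESeq2 called 1 higher and 5 lower genes, where it called 0.949% and 0.698% of all genes. Leaving out Ang II replicate 1, edgeR called 1 higher and 1 lower gene of the pathway, where it called 0.527% and 0.204% of all genes.

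**Figure D5:**
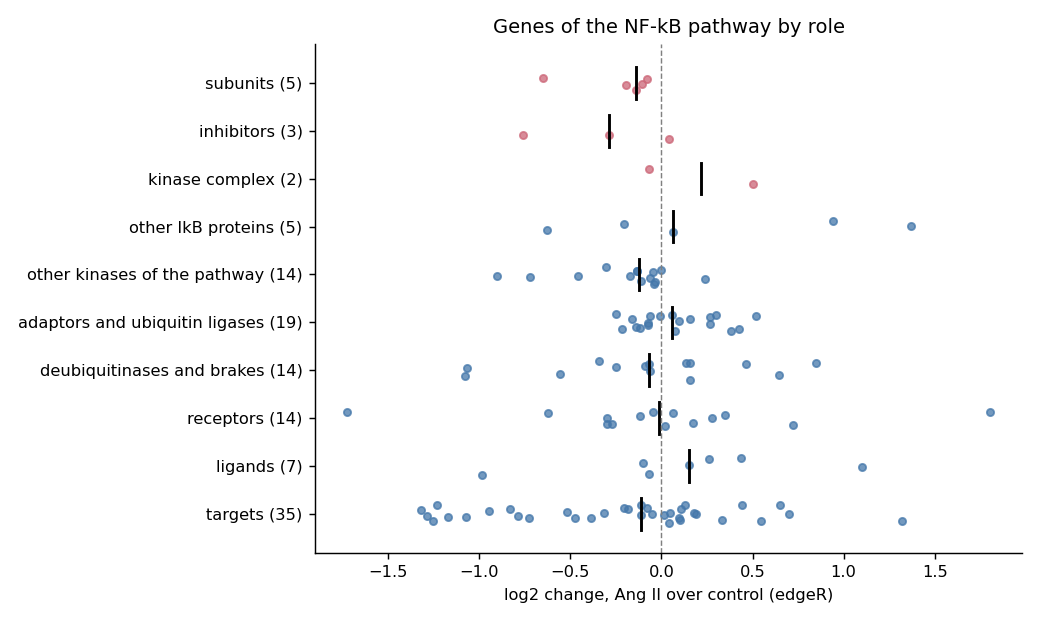
Log2 change of Ang II over control for each tested gene of the pathway, grouped by role with the number tested in brackets; red marks the 10 genes described here, blue the other genes and the black bar the median of each group. With all 6 hearts the group medians run from -0.29 to 0.22, and the receptor Tnfrsf12a is the point farthest to the right, at 1.80.

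Among 14 receptors tested, Tnfrsf12a was the clearest difference. It encodes the receptor for the cytokine TWEAK, which feeds the alternative NF-κB arm. It stood at 11.8, 10.0 and 11.9 CPM in controls and at 46.9, 34.5 and 36.3 CPM in Ang II hearts. Every Ang II heart was above every control, at 39.2 ± 6.68 against 11.2 ± 1.06 CPM (SD, n = 3), a log2 change of 1.80 (SE 0.179). It missed the threshold in edgeR (adjusted p = 0.0517) and rose in DESeq2 (adjusted p = 9.54e-15) and in edgeR without Ang II replicate 1 (adjusted p = 0.00884). Tlr4, the receptor for bacterial lipopolysaccharide, stood at 4.06 ± 0.638 CPM in controls and 6.68 ± 0.857 in Ang II hearts (SD, n = 3). Its log2 change was 0.72 (edgeR adjusted p = 0.487, and 0.139 without Ang II replicate 1). Its groups did not overlap in CPM but did in FPKM. Of the 14 receptors 7 lay above 0 and 7 below, with a median of -0.01, which was -0.18 over the 15 receptors tested with Ang II replicate 1 left out. In edgeR 2 higher and 1 lower receptors had an unadjusted p under 0.05, where 3.57% and 3.94% of all genes did. The lower receptor was Tlr3, named after its values were seen, with a log2 change of -0.62 (SE 0.182, edgeR adjusted p = 0.523).

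Of 35 tested targets, 15 lay above 0 and 20 below, with a median of -0.11, which was -0.29 with Ang II replicate 1 left out. In edgeR 1 higher and 5 lower targets had an unadjusted p under 0.05, where 3.57% and 3.94% of all genes did. None passed the threshold with all hearts. The higher gene was Ptx3, named after its values were seen, with a log2 change of 1.32 (SE 0.514, edgeR adjusted p = 0.630). Nos2, the inducible nitric oxide synthase, stood at 12.8, 12.5 and 12.2 CPM in controls and at 6.00, 5.33 and 6.48 CPM in Ang II hearts. Both groups were tight and did not overlap, a log2 change of -1.07 (SE 0.151). The edgeR adjusted p was 0.139 with all hearts and 0.0440 without Ang II replicate 1, and the DESeq2 adjusted p was 2.19e-07. C3, the central complement component, stood at 128 ± 14.7 CPM in controls and 77.2 ± 3.04 in Ang II hearts (SD, n = 3; log2 change -0.73, edgeR adjusted p = 0.337, DESeq2 adjusted p = 0.00128). Cflar encodes the caspase-8 inhibitor c-FLIP and was chosen after its values were seen. It stood at 16.7, 10.3 and 23.0 CPM in controls and at 5.96, 6.31 and 7.70 CPM in Ang II hearts. The DESeq2 adjusted p of Cflar was 0.0157 and its edgeR adjusted p was 0.395. Without Ang II replicate 1 edgeR called neither C3 (adjusted p = 0.0688) nor Cflar (adjusted p = 0.190).

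Of 14 deubiquitinases and other brakes 6 lay above 0 and 8 below, with a median of -0.07 (-0.03 with Ang II replicate 1 left out). In edgeR 2 higher and 2 lower genes had an unadjusted p under 0.05, where 3.57% and 3.94% of all genes did, and none passed the threshold. The higher pair, named after their values were seen, were Otulin, a deubiquitinase of linear ubiquitin chains, and Irak3, a kinase-like inhibitor of Toll-like receptor signalling. Otulin stood at 13.7, 12.6 and 10.2 CPM in controls and at 30.02, 20.5 and 15.3 CPM in those given Ang II, with a log2 change of 0.85 (edgeR adjusted p = 0.542). Irak3 stood at 4.64, 4.65 and 4.36 CPM in controls and at 6.60, 6.24 and 6.00 CPM in those given Ang II, with a log2 change of 0.46 (edgeR adjusted p = 0.572). Both pairs were apart in CPM, so the brakes with the smallest p lay in both directions. The lower pair were N4bp1, a suppressor of inflammatory signalling, and Zfp36, which encodes the mRNA-destabilising protein tristetraprolin. N4bp1 stood at 10.1, 14.6 and 8.54 CPM in controls and at 4.44, 5.72 and 5.58 CPM in Ang II hearts. Zfp36 stood at 46.6, 77.1 and 71.2 CPM in controls and at 23.1, 33.7 and 36.2 CPM in Ang II hearts. In FPKM the groups of N4bp1 stayed apart and those of Zfp36 overlapped. DESeq2 called both (adjusted p = 0.0183 and 0.0302) and edgeR neither (adjusted p = 0.390 and 0.447). Without Ang II replicate 1 edgeR also called neither (adjusted p = 0.163 and 0.163).

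The signalling layers nearest the 10 genes held no gene at an unadjusted p under 0.05 in edgeR. Of 14 other kinases 13 lay below 0, where 49.1% of all genes did. Their median was -0.12 (-0.15 with Ang II replicate 1 left out). They summed to 160 to 176 CPM in controls, to 161 and 169 in Ang II replicates 2 and 3, and to 105 in replicate 1. Tbk1, which acts beside the kinase complex, stood at 10.5 ± 0.345 CPM in controls and 7.60 ± 2.21 in Ang II hearts (SD, n = 3). Irak2, a kinase of interleukin-1 and Toll-like receptor signalling, stood at 8.89 ± 2.78 and 4.74 ± 2.94 CPM (SD, n = 3). Both were lowest in Ang II replicate 1, and both overlapped. Of 5 other IκB proteins 3 lay above 0, with a median of 0.07 that was -0.26 with Ang II replicate 1 left out. Bcl3, a nuclear co-regulator, stood at 2.23, 1.61 and 1.69 CPM in controls and at 6.12, 2.20 and 2.32 CPM in Ang II hearts. Nfkbiz, also a nuclear co-regulator, stood at 5.80 ± 3.18 CPM in controls and 3.76 ± 0.456 CPM in Ang II hearts (SD, n = 3). Of 19 adaptors and ubiquitin ligases 10 lay above 0, with a median of 0.06 that was -0.05 with Ang II replicate 1 left out. Among them were Sharpin, a part of the linear ubiquitin ligase, at 14.4, 12.6 and 14.8 CPM in controls and 27.3, 14.0 and 18.6 CPM in Ang II hearts, and Bcl10, a part of the CARD-BCL10-MALT1 complex, at 7.91 ± 1.02 and 9.52 ± 1.55 CPM (SD, n = 3). The groups of Bcl3 and of Sharpin overlapped in CPM but were apart in FPKM, with the Ang II hearts higher. Of 11 ligands 7 were abundant enough to test, with a median of 0.15 that was -0.26 with Ang II replicate 1 left out; Il1b stood at 1.45 ± 1.27 and 0.733 ± 0.408 CPM and Agt, the precursor of angiotensin itself, at 3.16 ± 0.799 and 3.78 ± 0.203 CPM (SD, n = 3).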

How the data were processed

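RNA of 6 mouse hearts, 3 control and 3 Ang II, was analysed from 1 deposited table. It holds the authors' FPKM and an estimated count, given as a whole number, for each gene and library, per the file headers. The submitters' processing notes list HISAT2 2.0, StringTie 1.3.0 and Bowtie 0.12.2 without saying what each did. The notes name mm8, yet 94.2% of the genes in common with GENCODE M21 carry its GRCm38 positions, which are the ones printed.

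The main test on the estimated counts was edgeR 4.0.16 in R 4.3.3: quasi-likelihood, TMM, filterByExpr with a minimum count of 10, two-sided, with a Benjamini-Hochberg threshold of 0.05. Standard errors and 95% intervals were derived from its F statistic. DESeq2 1.42.0 and limma 3.58.1 on log2(FPKM + 0.5) were alternatives, beside other scalings, filters, pseudocounts, library weights, a replicate block, each library left out in turn and, added after seeing the data, a correction for exon length. Replicates of a group differed by far more than counting error (chi-square per degree of freedom 34.1 to 483), so no library was a copy of another, and the design text gives 3 mice per group.

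The 10 genes and all lists were chosen with earlier results of these data known. Named are the 10 genes, the 2 genes with the smallest edgeR p and any gene called in each other pathway list, and the 3 genes most correlated with Rela and with Tnfaip3. Pathway genes named after their values were seen are marked as such. Plots used matplotlib 3.10.9 under Python 3.11.15.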

Additional observations from a re-analysis of the deposited data

How the results depend on the processing

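Of the 10 genes, 0 passed the threshold in edgeR or under any of the 16 alternatives run; the smallest adjusted p was 0.0984, for Tnfaip3 with library weights. Of 154 log2 changes under alternatives, 141 kept their direction and 13 turned. With library weights Ikbkg turned to -1.295 and Rel to 0.121. With the exon length correction, which was chosen after seeing the data, Ikbkb turned to 0.121 and Nfkbib to -0.008. When each library was left out in turn, Ikbkb ran from -0.289 to 0.081, Ikbkg from -1.168 to 1.431, Nfkbib from -0.075 to 0.132, Rel from -0.325 to 0.119 and Relb from -0.455 to 0.103. Ikbkb turned without control replicate 1 (0.07) and Ang II replicate 3, Ikbkg without Ang II replicate 1, and Nfkbib without control replicate 2. Rel turned without control replicate 2 and Ang II replicate 1 (0.11). Relb turned without control replicate 3 (0.026), Ang II replicate 2 and Ang II replicate 3 (0.058). Rela, Nfkb1, Nfkb2, Nfkbia and Tnfaip3 stayed below 0 throughout, Rela from -0.944 to -0.255, Nfkb1 from -0.313 to -0.006, Nfkb2 from -0.171 to -0.013, Nfkbia from -0.497 to -0.037 and Tnfaip3 from -0.991 to -0.652.

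Over all genes edgeR called 6. The count was 12 with no filter, 276 with DESeq2, 3 with limma on FPKM at pseudocounts of 0.1 and of 1, 348 with library weights and 12 with the exon length correction. It ran from 0 to 129 when each library was left out in turn, 129 being the count without Ang II replicate 1. With the replicate block 0 genes were called, and 0 of the 10. The cause of these differences was not tested. Hearts that share a number did not all deviate together (correlations 0.078, 0.112 and -0.037). Those with different numbers had correlations from -0.128 to 0.076. Values this weak cannot show whether the numbers pair the samples, and the main test did not pair them. Limma's filter on FPKM left out Tnfaip3 and Ikbkg. The low counts of Tnfaip3, Rel and Ikbkg, the 3 hearts per group and the unknown strandedness limit what can be said of them.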
